A study of Mus musculus with 11 samples.

Results

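The lysyl oxidase family comprises the 5 mouse genes Lox, Loxl1, Loxl2, Loxl3 and Loxl4. They were taken as the named members of the family, and all 5 were found among the 55421 genes counted in each of 11 RNA-seq libraries of mouse knee articular cartilage. The libraries form 3 groups, all from C57BL/6 mice 14 weeks old and killed 4 weeks after a DMM operation, which destabilizes the medial meniscus of a knee to model osteoarthritis. The c-FosWT contralateral group (n = 4) is the unoperated knee and the c-FosWT DMM group (n = 3) the operated knee of mice labelled wild type. The c-FosDCh DMM group (n = 4) is the operated knee of mice whose label is read here as loss of Fos in chondrocytes. The sources used here give neither the Cre driver nor the part of Fos removed, and no unoperated knee of c-FosDCh mice was analysed here. The DMM knees of c-FosWT came from 3 of the 4 mice that gave contralateral knees, and the titles of the c-FosDCh libraries carry 4 other mouse numbers. The sample names of 2 of these 4 libraries repeat the same replicate number, so their replicates are numbered 1 to 4 in accession order here.

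Lysyl oxidases are copper-dependent enzymes that are secreted into the matrix. They oxidize lysines and hydroxylysines of collagens and lysines of elastin to aldehydes, which then react with neighbouring chains to form the covalent crosslinks that give cartilage, tendon and bone their tensile strength. Lox and Loxl1 are made as proenzymes whose propeptide is cut off by the Bmp1 group of proteases, whereas Loxl2, Loxl3 and Loxl4 carry scavenger receptor cysteine-rich domains in front of the catalytic part.

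The catalytic part is what the 5 genes share, and its copper-binding stretch is printed here because it shows both how close the members are and why reads can still be told apart. The 60 coding bases around the copper site were read from the reference transcripts of build GRCm38 (GENCODE M21), 5′ to 3′ on the coding strand. Capitals mark the 35 positions at which the printed members have the same base. Lox is not printed.
Loxl1: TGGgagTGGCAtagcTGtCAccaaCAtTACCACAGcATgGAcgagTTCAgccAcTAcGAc
Loxl2: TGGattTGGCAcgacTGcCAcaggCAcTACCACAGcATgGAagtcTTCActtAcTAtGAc
Loxl3: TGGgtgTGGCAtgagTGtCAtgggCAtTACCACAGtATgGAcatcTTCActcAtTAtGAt
Loxl4: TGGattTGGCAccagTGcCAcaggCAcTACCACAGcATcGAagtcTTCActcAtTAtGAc
In each printed gene an intron splits the stretch after base 23. In Loxl1 it lies at chr9:58294359-58294381 in exon 3 and chr9:58293693-58293729 in exon 4, on the minus strand. In Loxl2 it lies at chr14:69682316-69682338 in exon 10 and chr14:69689028-69689064 in exon 11, on the plus strand. In Loxl3 it lies at chr6:83049995-83050017 in exon 10 and chr6:83050116-83050152 in exon 11, on the plus strand. In Loxl4 it lies at chr19:42599877-42599899 in exon 11 and chr19:42598780-42598816 in exon 12, on the minus strand.

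Over this stretch 2 pairs of members were nearly identical. Lox and Loxl1 were identical at 57 of 60 bases, Loxl2 and Loxl4 at 55 of 60, and the other 8 pairs at 40 to 47 of 60. Over the whole catalytic part, taken from 80 codons before the site to the stop, Lox and Loxl1 were 71.2% identical in aligned coding bases. Loxl2, Loxl3 and Loxl4 were 68.2 to 71.9% identical among themselves, and pairs across the subgroups were 62.5 to 65% identical. No word of 75 bases, the read length, was shared between any members, so an exact read of one member cannot be a read of another.

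The genes differ in how cleanly they can be counted. Lox (ENSMUSG00000024529.14) spans chr18:52516067-52529867 on the minus strand, and 30 of its 4778 exon bases overlap the antisense gene AC161119.1, which had 9 to 50 counts per library. Loxl1 (ENSMUSG00000032334.10, chr9:58287738-58313186, minus strand, 3297 exon bases) and Loxl4 (ENSMUSG00000025185.14, chr19:42593982-42612813, minus strand, 4213 exon bases) share no exon bases with another gene. Loxl3 (ENSMUSG00000000693.10, chr6:83034173-83052562, plus strand) shares 535 of its 4603 exon bases with Htra2 on the opposite strand, which had 421 to 1044 counts. The library kit marks strand, but the strand setting of the counting is not given in the sources used here, so reads in that overlap cannot be assigned with certainty. Loxl2 (ENSMUSG00000034205.16, chr14:69609068-69695834, plus strand, 5405 exon bases) has a near-identical neighbour, the unprocessed pseudogene Gm21451 at chr14:69390854-69480287. Of the 5331 words of 75 bases in Loxl2 transcripts, 43.6% were held by another gene on the same strand. In the coding part the share was 91.6%, and after the coding part it was 1.77%. Gm21451 had 0 counts in all 11 libraries. Reads from the duplicated part cannot be placed on 1 gene, so the Loxl2 level is uncertain.

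Facts of the whole set touch the family in a few places. Gene counts per library ranged from 13593454 to 18280558, and each member had at least 394 counts in every library, so counting noise was small beside the spread between libraries. Fos itself was 17.1, 24.8, 22 and 15.7 CPM (the usual depth-scaled count, with TMM factors) in contralateral knees and 12.1, 14.1 and 9.01 CPM in c-FosWT DMM knees. Libraries with the c-FosDCh label had 19.4, 10.9, 29.5 and 33 CPM. Fos was thus not lower under the c-FosDCh label (log2 fold change 0.98 ± 0.35 SE against c-FosWT DMM, edgeR adjusted p = 0.0736), and c-FosDCh is used here only as the label of those libraries. All 10 cartilage markers were detected at levels that passed the filter, with Acan at 531 to 9080 CPM and Col2a1 at 2610 to 12900 CPM, while Matn3 fell to 0.0727 CPM in its lowest library. Transcripts of marrow and muscle were present as well. A marrow score (19 genes of red cells and granulocytes, averaged as log2 CPM) was 7.89 ± 0.76 (SD) in contralateral knees, 9.16 ± 0.39 in c-FosWT DMM knees, and 8.3, 8.24, 6.83 and 4.6 in the 4 libraries labelled c-FosDCh. The muscle score was highest in contralateral replicate 2 and c-FosWT DMM replicate 1. In such bulk samples, fewer cells of a type and less RNA per cell cannot be told apart.

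Per kilobase of exon, the scale on which genes can be compared, Lox was the most abundant member in every library. In contralateral knees Lox was at 86 ± 20.4 CPM per kb (SD, n = 4). Loxl3 followed at 20.4 ± 4.51, Loxl1 at 17.2 ± 2.04, Loxl4 at 16.6 ± 4.03 and Loxl2 at 13.7 ± 3.5 CPM per kb. Only the step from Lox to Loxl3 was larger than the spread, and the other neighbours in that order lay within 1 SD of each other. The place of Loxl2 depends on the length used: scaled by unduplicated bases it held 14.9% of the family sum in these knees and ranked after Lox, ahead of Loxl3 at 12%. In c-FosWT DMM knees the order was Lox at 42.4 ± 17.4, Loxl1 at 18 ± 2.83, Loxl3 at 12.6 ± 3.14, Loxl4 at 10.2 ± 2.94 and Loxl2 at 9.27 ± 5.9 CPM per kb (SD, n = 3), with Loxl1 ahead of Loxl3. Lox and Loxl1, and Loxl1 and Loxl3, were each more than 1 SD apart there, and the lower neighbours were not. In the libraries labelled c-FosDCh, Lox was at 137 ± 64.8 and Loxl3 at 31.8 ± 11.2 CPM per kb (SD, n = 4). There Loxl2, Loxl4 and Loxl1 were close together at 16.3 ± 9.78, 16 ± 6.53 and 14.3 ± 5.06 CPM per kb.

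The family total ran with Lox largely by construction, since Lox was its largest part in every library. Summed over the 5 genes the total was 144, 184, 166 and 122 CPM per kb in contralateral replicates 1 to 4. In the operated c-FosWT knees it was 129, 77.4 and 71.4 CPM per kb, and under the c-FosDCh label 142, 159, 229 and 331 CPM per kb. Replicates 2 and 3 of c-FosWT DMM were the lowest of all 11, c-FosDCh replicates 3 and 4 were the highest, and the remaining 7 libraries lay between 122 and 184.

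The make-up of the family also differed between groups, as a description without a test. Lox supplied 55.5% ± 5.16 of the family sum in contralateral knees, 45.1% ± 3.63 in c-FosWT DMM knees and 62.1% ± 5.77 in the libraries labelled c-FosDCh. The 3 c-FosWT DMM knees, at 41.2 to 48.3%, lay below every other library. Shares of 1 sum are tied, so a change in Lox, the largest part, moves the other shares the opposite way. The Loxl1 share took the reverse course, with 11.5% ± 2.94, 20.2% ± 3.27 and 8.09% ± 5.13, and c-FosDCh replicates 3 and 4 had only 4.56 and 2.86%. The Loxl1 level itself was 17.2 ± 2.04, 18 ± 2.83 and 14.3 ± 5.06 CPM per kb, nearly the same in the 2 c-FosWT groups. Loxl3 kept a share of 13.3% ± 2.59, 14.1% ± 3.25 and 15% ± 0.747. Loxl4 made up 10.7% ± 1.41, 11.2% ± 0.549 and 7.38% ± 0.806, so that each library labelled c-FosDCh, at 6.46 to 8.36%, had a smaller Loxl4 share than any c-FosWT library. The Loxl4 level was 16.6 ± 4.03, 10.2 ± 2.94 and 16 ± 6.53 CPM per kb in the same order. The smaller share therefore does not show a lower Loxl4 level under the c-FosDCh label. Loxl2 made up 8.97% ± 2.02, 9.42% ± 2.67 and 7.46% ± 2. Its shares were 14.9, 15.6 and 12.5% when each gene was scaled by its 75-base words that no other gene holds on the same strand.

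**Figure D1:**
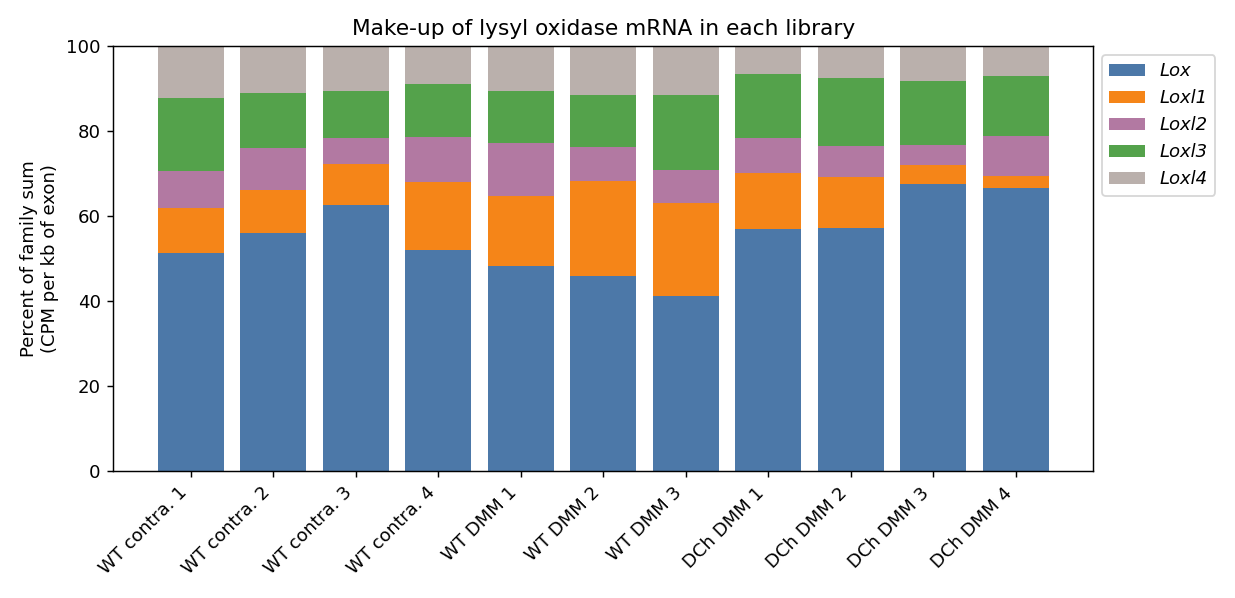
Each bar is 1 library and each colour 1 gene, as percent of the summed CPM per kb of exon of the 5 lysyl oxidase genes (contra. is contralateral). The blue Lox part is lowest in the 3 c-FosWT DMM libraries (41.2 to 48.3%) and the orange Loxl1 part is thinnest in c-FosDCh DMM replicates 3 and 4 (4.56 and 2.86%).

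Operated and unoperated c-FosWT knees were compared for the difference that goes with the operated side in mice labelled wild type. None of the 5 genes passed the test, but 4 of the 5 had lower means in operated knees. Lox, the main collagen and elastin crosslinker, was 355, 491, 495 and 303 CPM in contralateral knees and 297, 170 and 140 CPM in DMM knees. All 3 DMM knees were below all 4 contralateral knees, although DMM replicate 1 was only just below contralateral replicate 4. The log2 fold change was −1.02 ± 0.39 (SE; edgeR, Benjamini-Hochberg adjusted p = 0.205). No gene among the 18125 tested was called in this comparison (percent called 0, edgeR adjusted p under 0.05), while 3605 had an unadjusted p under 0.05 and the DESeq2 alternative called 825 (5.6%), none of them a lysyl oxidase. Lox was the only member of 5 without overlap between the groups, and 23.1% of all tested genes had none (13.1% with the operated knees lower).

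Loxl3, which is needed for normal palate and spine development, was 113, 109, 83.2 and 69.9 CPM in contralateral knees and 72.3, 43.5 and 58.6 CPM in DMM knees. DMM replicate 1 lay above contralateral replicate 4, so the groups overlapped by that pair, and the log2 fold change was −0.69 ± 0.29 (edgeR adjusted p = 0.227). Loxl4 was 74.9, 85, 74.4 and 45.6 CPM against 57.2, 37.8 and 34.2 CPM. Again DMM replicate 1 lay above contralateral replicate 4, and the log2 fold change was −0.70 ± 0.34 (edgeR adjusted p = 0.275).

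Loxl2, which also acts on basement membrane collagen IV, was 69.3, 100, 55.2 and 70.7 CPM in contralateral knees and 86.9, 33.4 and 30 CPM in DMM knees. DMM replicate 1 was second only to contralateral replicate 2 among these 7 libraries, and both are the muscle-rich libraries. The log2 fold change of Loxl2 was −0.56 ± 0.47 (edgeR adjusted p = 0.5). Loxl1, the member tied to elastic fibre upkeep, was the exception, at 49.8, 61.1, 52.5 and 63.8 CPM against 69.6, 56.8 and 51.4 CPM. The ranges overlapped almost wholly, and its log2 fold change was 0.06 ± 0.25 (edgeR adjusted p = 0.897), or −0.04 without DMM replicate 1.

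Within the 3 mice that gave both knees, Lox was lower on the operated side in each, by log2 differences of −0.26, −1.53 and −1.11. Loxl3 was also lower in each, at −0.64, −1.33 and −0.25, as was Loxl4, at −0.39, −1.17 and −0.42. Loxl2 gave 0.33, −1.58 and −1.23, and Loxl1 gave 0.48, −0.11 and −0.31, so in both genes the first mouse went the other way. In that mouse the muscle score was 4.84 higher (mean log2 CPM) on the operated side, and in the others it differed by −3.24 and −0.88. The marrow score was higher on the operated side in all 3 mice, by 0.76, 1.77 and 0.67. With it as a covariate the Lox log2 fold change in this comparison was −0.49.

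**Figure D2:**
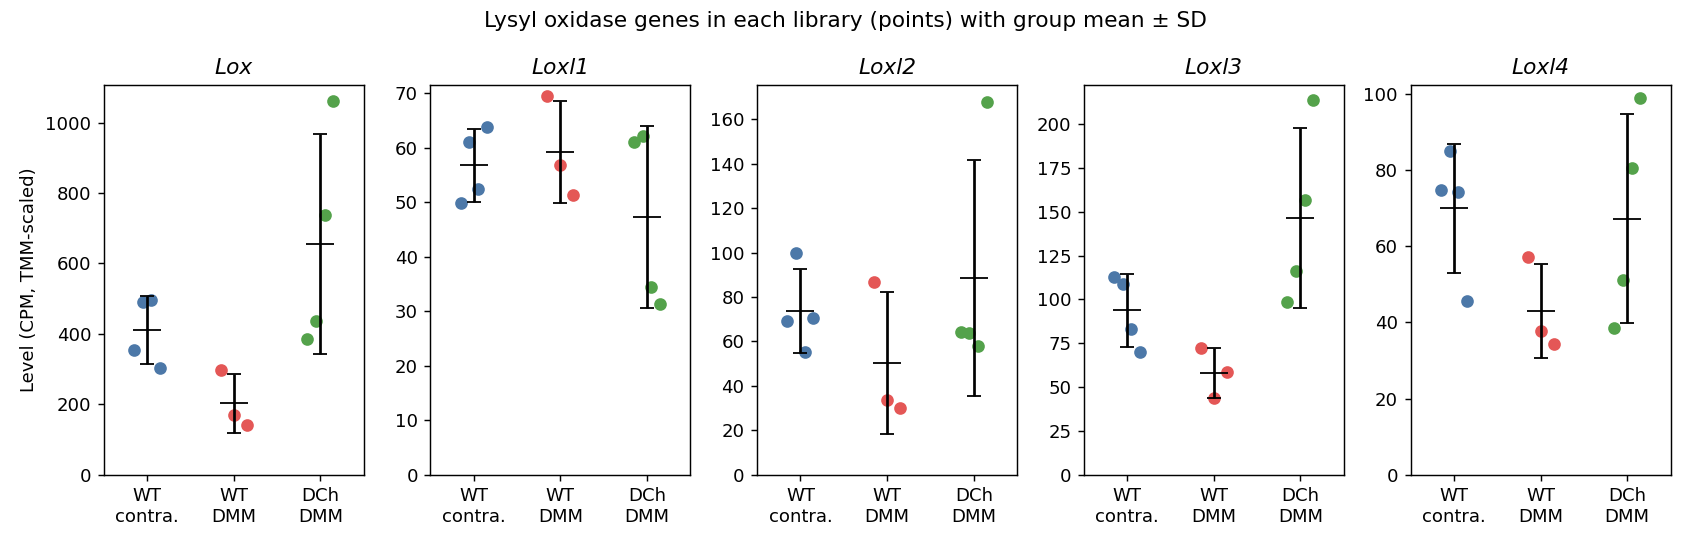
Levels of the 5 genes in CPM (vertical axes from 0, each panel with its own scale). Each point is 1 library of c-FosWT contralateral (WT contra., n = 4), c-FosWT DMM (WT DMM, n = 3) or c-FosDCh DMM (DCh DMM, n = 4), and the bars give mean ± SD. Lox and Loxl3 in the 4 libraries labelled c-FosDCh lie above all 3 c-FosWT DMM libraries, and 1 Loxl2 point at 168 CPM stands apart.

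Operated knees of the 2 genotype labels were compared for the difference that goes with the c-FosDCh label. Lox and Loxl3 were higher under the c-FosDCh label, by 3.23-fold and 2.52-fold. Loxl2, Loxl4 and Loxl1 did not pass the test. Lox was 297, 170 and 140 CPM in c-FosWT DMM knees and 385, 435, 737 and 1060 CPM in those labelled c-FosDCh, so all 4 lay above all 3. The log2 fold change was 1.69 ± 0.40 (SE; edgeR adjusted p = 0.0339). Loxl3 was 72.3, 43.5 and 58.6 CPM against 98.7, 116, 157 and 214 CPM, again without overlap, with a log2 fold change of 1.33 ± 0.29 (edgeR adjusted p = 0.0332).

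Thus 2 of the 5 members were called, both higher, where 14.4% of all tested genes were called, 10.6% higher and 3.79% lower. The same 2 members had groups without overlap, as did 33% of all tested genes (17.2% with the c-FosDCh label higher). In both genes the order within the c-FosDCh label was the same, with replicate 4 highest, replicate 3 next and replicates 1 and 2 lowest. The marrow score ran in the opposite order, with replicate 4 lowest and replicate 3 next. In the same comparison 5 of 9 erythroid markers were called lower, and 4 of 10 cartilage and 2 of 8 tendon markers were called higher. Also called higher were 1 of 10 osteoblast, 1 of 7 smooth muscle and 1 of 8 macrophage markers. None of 10 granulocyte, 10 skeletal muscle, 10 fibroblast or 8 endothelial markers was called.

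Both calls depended on which libraries and terms were in the fit. With the marrow score as a covariate the log2 fold changes were 0.70 for Lox and 0.69 for Loxl3 (edgeR adjusted p = 0.358 and 0.37). Without replicates 3 and 4 of the c-FosDCh label, an omission chosen after seeing the data, they were 1.01 and 0.88 (edgeR adjusted p = 0.175 and 0.163). The direction stayed positive in each of the 24 alternative settings for both genes, with lowest values of 0.70 and 0.69, and 12 of the 24 ended each call. DESeq2 gave 1.67 and 1.31 with adjusted p = 0.000634 and 0.00062, and called 28.4% of its tested genes (15.6% higher). With single libraries left out, both calls ended without c-FosWT DMM replicate 2 or 3 (Lox 1.57 and 1.48, Loxl3 1.14 and 1.33), c-FosDCh replicate 3 or 4 (Lox 1.63 and 1.36, Loxl3 1.30 and 1.09), or contralateral replicate 1 or 2, which enter only through the shared spread (Lox 1.68 in both cases, Loxl3 1.31 and 1.32).

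The other members showed smaller differences. Loxl2 was 86.9, 33.4 and 30 CPM in c-FosWT DMM knees and 64, 63.9, 58 and 168 CPM in those labelled c-FosDCh. One library on each side, c-FosWT DMM replicate 1 and c-FosDCh replicate 4, stood far from its group, and the log2 fold change was 0.82 ± 0.47 (edgeR adjusted p = 0.211), or 0.31 at the lowest when single libraries were left out. Loxl4 was 57.2, 37.8 and 34.2 CPM against 38.5, 51.1, 80.6 and 99 CPM. Only c-FosDCh replicates 3 and 4 lay above all 3 c-FosWT DMM knees, and the log2 fold change was 0.64 ± 0.34 (edgeR adjusted p = 0.176). Loxl1 was 69.6, 56.8 and 51.4 CPM against 61.1, 62.2, 34.4 and 31.3 CPM. The libraries labelled c-FosDCh fell into replicates 1 and 2 at the c-FosWT level and replicates 3 and 4 below it, and the log2 fold change was −0.33 ± 0.25 (edgeR adjusted p = 0.328).

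Operated knees labelled c-FosDCh were also set against unoperated c-FosWT knees, a comparison in which label and operation differ together and which shares libraries with both others. No member was called and none was without overlap, where 0% of tested genes were called (edgeR; 1512 had an unadjusted p under 0.05, and DESeq2 called 37, or 0.171%) and 4.4% had no overlap. Loxl3 was 98.7 to 214 CPM against 69.9 to 113 CPM, with a log2 fold change of 0.64 ± 0.26 (edgeR adjusted p = 0.584). Lox was 385 to 1060 CPM against 303 to 495 CPM, with 0.67 ± 0.35 (edgeR adjusted p = 0.598). Replicates 1 and 2 of the c-FosDCh label lay inside the contralateral range of Lox, and replicates 3 and 4 lay above it. Loxl2 gave 0.26 ± 0.43, Loxl4 −0.06 ± 0.31 and Loxl1 −0.26 ± 0.23 (edgeR adjusted p = 0.82, 0.947 and 0.682), and the ranges of all 3 genes overlapped.

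**Figure D3:**
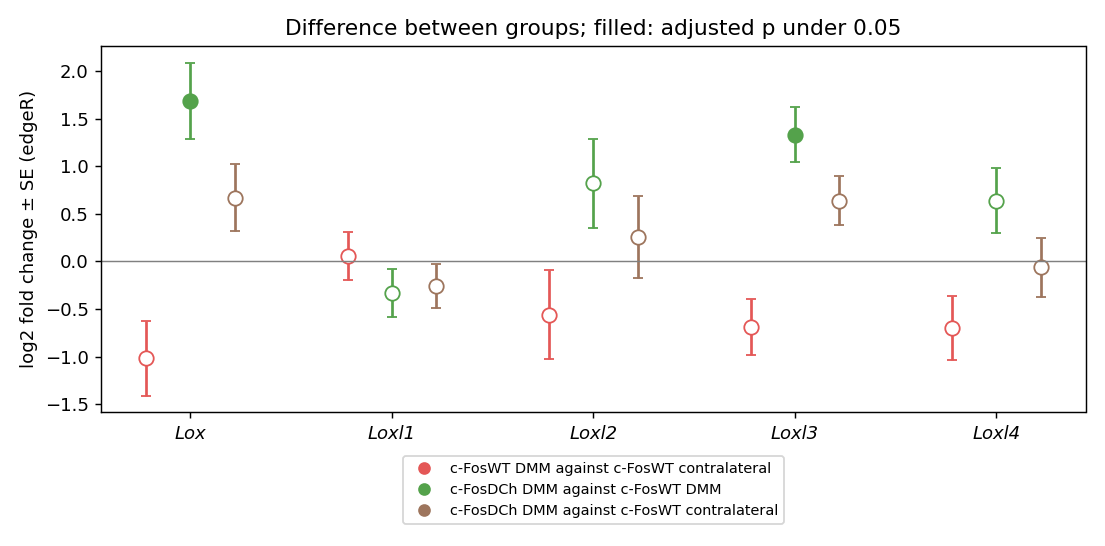
Log2 fold change ± SE (edgeR) of each gene in 3 comparisons, with filled points where the adjusted p is under 0.05. Filled points are Lox at 1.69 and Loxl3 at 1.33 for c-FosDCh DMM against c-FosWT DMM, and the red points of c-FosWT DMM against contralateral lie below 0 for every member except Loxl1.

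Across the 11 libraries, Lox, Loxl3 and Loxl4 ran together and Loxl1 did not run with them. These correlations are descriptions over libraries that share groups, tissue mixture and, for 3 mice, the animal. Pearson's r of log2 CPM was 0.92 between Lox and Loxl3 (Spearman's rho 0.85), 0.84 between Lox and Loxl4 (rho 0.82) and 0.77 between Loxl3 and Loxl4 (rho 0.79). Taken as deviations from group means, r for these pairs was 0.79, 0.94 and 0.89. Lox and Loxl2 gave r = 0.78 but rho = 0.38. Loxl1 had negative r with Loxl3, Lox and Loxl4, at −0.67, −0.60 and −0.56 (rho −0.45, −0.43 and −0.36). With Loxl2 its r was −0.27 but rho was 0.19.

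The members were also set against 11 marker scores, each the mean log2 CPM of a cell type's marker genes. These 55 relations were computed after seeing the data, and the 11 scores are not independent of each other. The p-values come from 100000 permutations, two-sided, with Benjamini-Hochberg adjustment over the 55. These p-values treat the 11 libraries as exchangeable, although libraries share groups and some share the animal, so they may be too small. Gene levels and scores are also both CPM of the same library, so a larger share of marrow RNA leaves a smaller share for other genes. The relations are therefore descriptions, and their cause was not tested. Lox was lower where the marrow score was higher (r = −0.92, permutation p = 4e-05, adjusted p = 0.00055; rho = −0.96, permutation p = 6e-05, adjusted p = 0.0016). Leaving out the 2 libraries with the most extreme scores, r was −0.91, and as deviations from group means it was −0.90. Lox also had negative r with the macrophage score (−0.82) and the endothelial score (−0.76; permutation p = 0.00012 and 0.0044, adjusted p = 0.0013 and 0.016). For the macrophage score rho was −0.86 (permutation p = 0.0013, adjusted p = 0.0089), and r was −0.73 without its 2 extreme libraries. For the endothelial score rho was −0.61 (permutation p = 0.052, adjusted p = 0.18), and r was only −0.34 without its 2 extreme libraries.

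Loxl4 and Loxl3 showed the same relation to the marrow score. For Loxl4 r was −0.84 (permutation p = 0.00014, adjusted p = 0.0013; rho = −0.91, permutation p = 0.00016, adjusted p = 0.0029), with −0.85 without the 2 extreme libraries and −0.87 as deviations from group means. For Loxl3 r was −0.87 (permutation p = 0.0004, adjusted p = 0.0024; rho = −0.86, permutation p = 0.0011, adjusted p = 0.0086), with −0.71 and −0.78 under the same checks. Loxl2 gave r = −0.75 (permutation p = 0.013, adjusted p = 0.042) but rho = −0.42 (permutation p = 0.2, adjusted p = 0.37). Loxl1 had a positive r with the marrow score (0.76, permutation p = 0.016, adjusted p = 0.043; rho = 0.51, permutation p = 0.12, adjusted p = 0.29), but r was 0.08 without the 2 extreme libraries, on which the relation therefore rests.

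Loxl1 was higher where the scores of fibroblasts and of endothelial cells were higher. With the fibroblast score, built from 10 genes such as Pdgfra, Thy1 and Dpt, its r was 0.97 (permutation p = 0.00018, adjusted p = 0.0014; rho = 0.86, permutation p = 0.0015, adjusted p = 0.0092), with 0.84 without the 2 extreme libraries and 0.98 as deviations from group means. With the endothelial score r was 0.92 (permutation p = 0.0036, adjusted p = 0.014; rho = 0.76, permutation p = 0.0086, adjusted p = 0.034), with 0.41 and 0.96 under the same checks. With the macrophage score r was 0.87 (permutation p = 0.017, adjusted p = 0.043) but rho was 0.36 (permutation p = 0.28, adjusted p = 0.45), and r was −0.16 without the 2 extreme libraries. Whether Loxl1 follows 1 of these scores more closely than another was not tested.

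The other members had r between −0.49 and −0.10 with the fibroblast score, none past the threshold (permutation p from 0.13 to 0.74, adjusted from 0.23 to 0.83). For Lox, Loxl3 and Loxl4 that sign turned without the 2 extreme libraries, c-FosDCh replicates 3 and 4, to r between 0.27 and 0.52, and for Loxl2 r was then 0.81. These 2 libraries had the lowest Loxl1 levels, and they also had the lowest fibroblast (3.67 and 3.62), endothelial (3.55 and 3.05), macrophage (5.33 and 4.73) and marrow scores (6.83 and 4.6) of all 11.

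**Figure D4:**
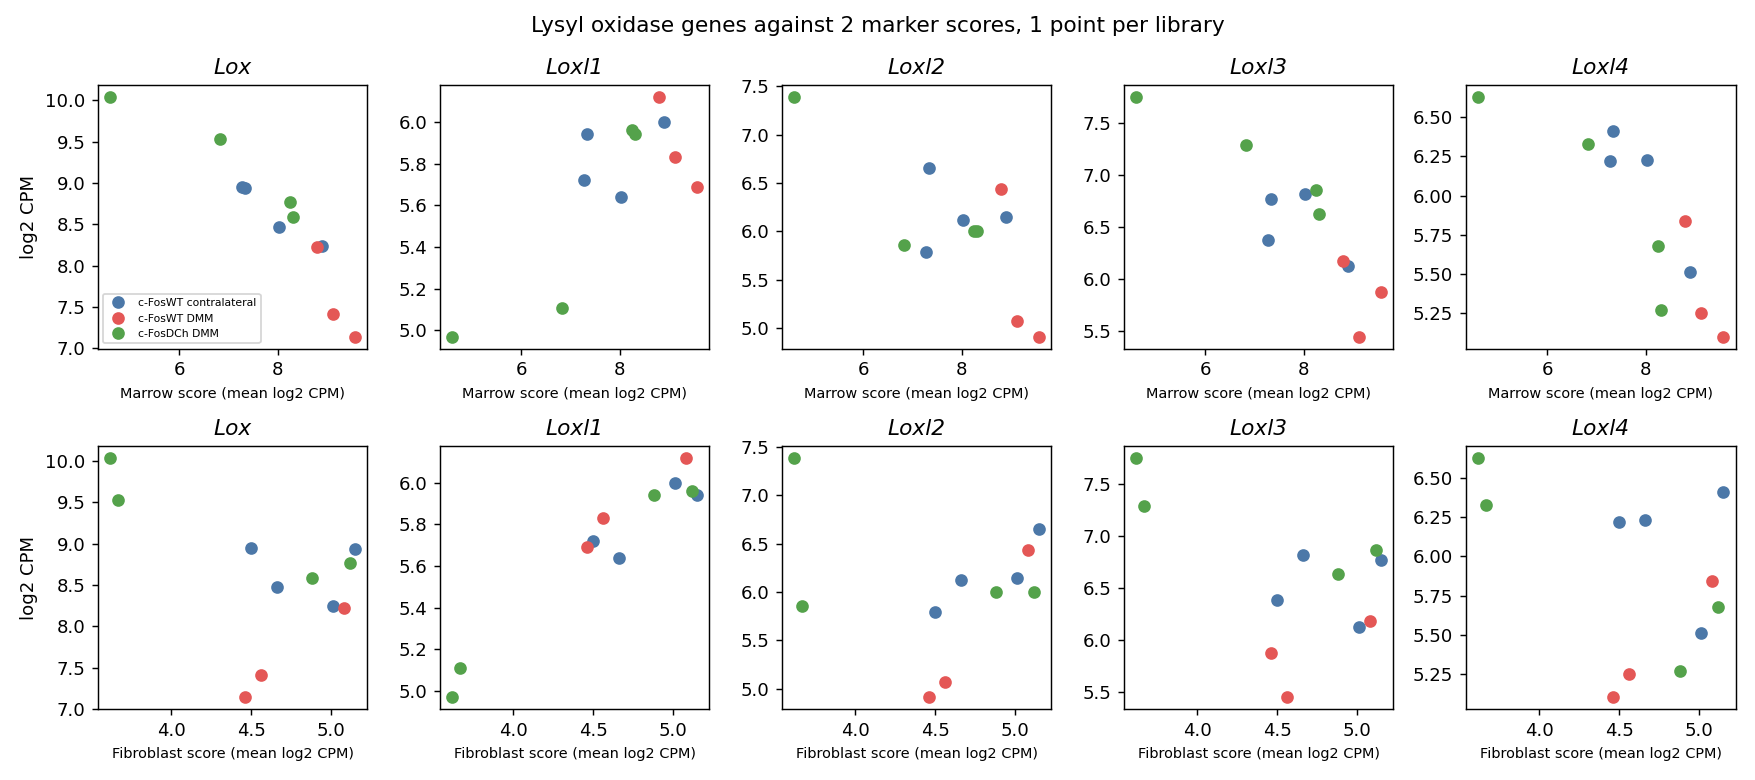
Log2 CPM of each gene against the marrow score (top) and the fibroblast score (bottom), both mean log2 CPM of marker genes, with 1 point per library coloured by group. Lox, Loxl3 and Loxl4 fall from left to right in the top row (r = −0.92, −0.87 and −0.84), and Loxl1 rises with the fibroblast score in the bottom row (r = 0.97).

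The genes most alike to each member were taken as the 3 highest Pearson correlations of log2 CPM over the 11 libraries among 12698 named candidate genes. They were picked for likeness in these same libraries, so group levels that run with the member follow from the choice. For Lox they were Eogt (r = 0.994), Tada2a (0.992) and Tcf4 (0.989). Eogt, an enzyme that adds sugar to secreted proteins, was at 27 ± 2.63, 17.8 ± 4.65 and 36.8 ± 9.89 CPM (mean ± SD) in contralateral, c-FosWT DMM and c-FosDCh DMM knees. For Loxl3 they were Stk38l (0.986), Ccdc157 (0.983) and Slc2a10 (0.982), the last a sugar transporter whose loss causes arterial tortuosity. Slc2a10 was at 28.8 ± 6.59, 15.3 ± 2.75 and 44.9 ± 22.7 CPM in the same order. For Loxl4 they were Mapk1ip1 (0.969), Airn (0.957) and Ercc6l2 (0.954). Spearman's rho was 0.93 to 0.98 for the genes named with Lox, Loxl3 and Loxl4. Loxl2 had Golt1b, Ugp2 and Hspb8, all at r = 0.933 (rho 0.88, 0.88 and 0.73). For Loxl1 they were Ifi204 (0.953), Jcad (0.953) and Serpinf1 (0.951), with rho of 0.75, 0.91 and 0.95. Serpinf1, which encodes the secreted factor PEDF, was at 168 ± 30, 161 ± 54.4 and 119 ± 59 CPM. No top gene was shared between members.

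The partners of the family were 46 genes listed by role, 45 of which could be tested (Tll2 was too low). The lists were chosen with earlier results of these data known, so their counts are descriptions and not a test of the partners as a set. In operated knees, 13 of 45 were called higher under the c-FosDCh label and 0 were called lower, where 10.6% of all tested genes were called higher and 3.79% lower. By sign alone, 32 had positive and 13 negative log2 fold changes. The median log2 fold change was 0.39 over the 45 partners and −0.01 over all tested genes. In c-FosWT DMM against contralateral knees none was called in edgeR (15 had an unadjusted p under 0.05, and DESeq2 called 4), and 39 of 45 had negative log2 fold changes with a median of −0.31. The same c-FosWT DMM libraries enter both comparisons with opposite sign, so the opposite directions are not independent observations. Against contralateral knees, the libraries labelled c-FosDCh had none called (7 with an unadjusted p under 0.05, and DESeq2 called 0) and a median of 0.04. The 13 calls all ended without c-FosDCh replicate 3 or 4, c-FosWT DMM replicate 2 or 3, or contralateral replicate 1 or 2, and 8 were made without contralateral replicate 3. No gene at all was called with the marrow score as a covariate.

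Lysine hydroxylation precedes crosslinking, and lysyl oxidases act on both lysines and hydroxylysines of collagens. Of the 5 genes listed for this step, 4 were called higher under the c-FosDCh label than in c-FosWT DMM. Among all tested genes 10.6% were called higher. Plod2, the hydroxylase of telopeptide lysines, was at 761 ± 452 CPM (SD, n = 4) against 226 ± 88.5 CPM (n = 3), with a log2 fold change of 1.75 ± 0.45 (edgeR adjusted p = 0.0368). Plod1, which hydroxylates helical lysines, was at 149 ± 28.4 against 83.4 ± 13.6 CPM, with 0.83 ± 0.16 (edgeR adjusted p = 0.0332). Plod3 and the chaperone gene Fkbp10 rose by 0.54 ± 0.13 and 0.92 ± 0.20 on the log2 scale (edgeR adjusted p = 0.0356 and 0.0332). The sugar-adding enzyme Colgalt1 gave 0.01 ± 0.12 (edgeR adjusted p = 0.973). For all 4 called genes, the 4 libraries labelled c-FosDCh lay above the 3 c-FosWT DMM libraries, as they did for 17.2% of all tested genes.

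Among the 9 tested activating proteases and scaffolds, 3 were called, all higher, where 10.6% of all tested genes were called higher. Fn1, the fibronectin gene, whose product binds Lox in the matrix, was at 21000 ± 7440 CPM against 6290 ± 1750 CPM, with a log2 fold change of 1.74 ± 0.38 (edgeR adjusted p = 0.0332). Fmod, whose product fibromodulin guides Lox to collagen and which is also a tendon marker, gave 1.33 ± 0.33, and Pcolce, an enhancer of procollagen cleavage, gave 0.87 ± 0.19 (edgeR adjusted p = 0.0352 and 0.0332). Bmp1, the protease that releases active Lox, was at 206 ± 39.5 against 224 ± 27.1 CPM, with −0.11 ± 0.16 (edgeR adjusted p = 0.606). Its relative Tll1 gave 1.44 ± 0.46 at a low level (edgeR adjusted p = 0.0582), and the scaffold gene Postn gave −0.44 ± 0.63 (edgeR adjusted p = 0.614).

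Of the 3 copper genes, Atox1, a chaperone that hands copper to the secretory pathway, was higher under the c-FosDCh label by 0.73 ± 0.21 on the log2 scale (edgeR adjusted p = 0.0444). The copper pump gene Atp7a, which loads copper into lysyl oxidases, gave 0.31 ± 0.11 (edgeR adjusted p = 0.0802). Of the upstream regulators, 4 of 9 were called higher, where 10.6% of all tested genes were. All 9 had positive log2 fold changes, as did 8968 of the 18125 tested genes. Hif1a, which encodes the oxygen-regulated factor known to raise Lox and Plod2, was at 343 ± 153 against 131 ± 47.2 CPM, with 1.39 ± 0.35 (edgeR adjusted p = 0.0364). Ccn2 gave 3.10 ± 0.71, Snai1 1.11 ± 0.30 and Tgfb3 0.75 ± 0.17 (edgeR adjusted p = 0.0332, 0.0408 and 0.0332), while Tgfb1 gave 0.47 ± 0.16 (edgeR adjusted p = 0.0701) and Snai2 0.04 ± 0.25 (edgeR adjusted p = 0.925).

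Among the substrates, none of 10 collagen genes was called, with a median log2 fold change of 0.25. Among all tested genes 10.6% were called higher and 3.79% lower. Col1a1, the main collagen of bone and fibrous tissue, gave −0.34 ± 0.48 and Col2a1, that of cartilage, gave 0.76 ± 0.47 (edgeR adjusted p = 0.602 and 0.239). Of 9 elastic fibre genes, 1 was called, which is near the share of all tested genes called higher. It was Efemp2, whose product fibulin-4 brings Lox to elastin, at 78.2 ± 15.7 against 39.1 ± 8 CPM with 1.00 ± 0.22 (edgeR adjusted p = 0.0332). Eln, the elastin gene, gave 0.39 ± 0.42, and Fbln5, whose product brings Loxl1 to elastin, gave −0.80 ± 0.37 (edgeR adjusted p = 0.491 and 0.136).

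**Figure D5:**
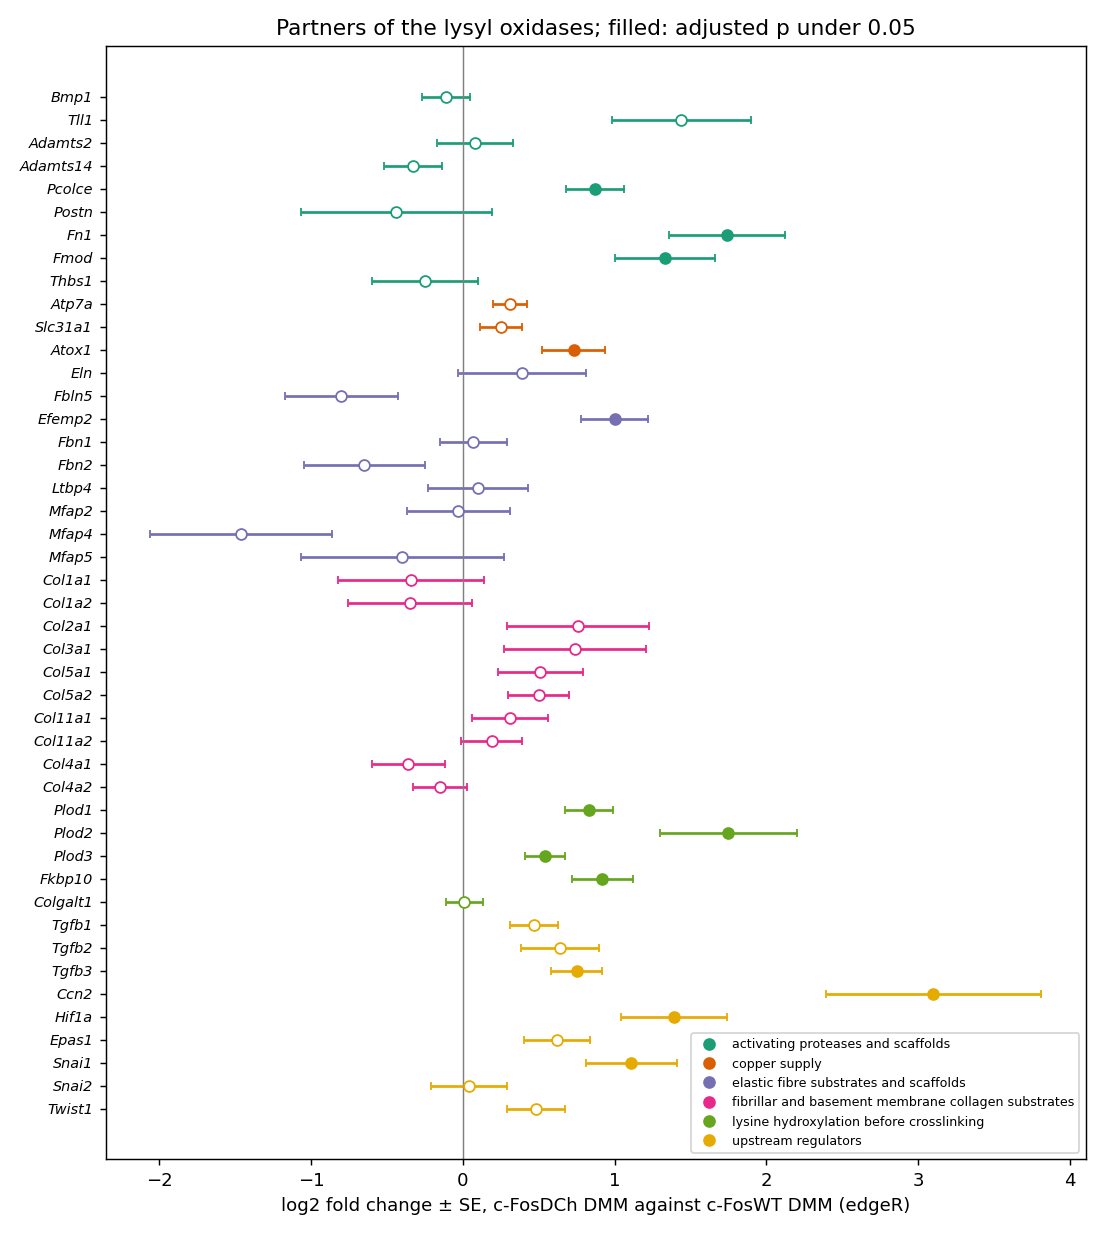
Log2 fold change ± SE (edgeR) of the 45 tested partner genes in c-FosDCh DMM against c-FosWT DMM, coloured by role, with filled points where the adjusted p is under 0.05. All 13 filled points lie right of 0, 4 of them among the 5 lysine hydroxylation genes and none among the 10 collagen genes.

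Enzyme was finally set against substrate within each library, as the log2 ratio of each member to Col1a1 and to Col2a1. None of the 30 exact two-sided permutation tests passed after Benjamini-Hochberg adjustment (lowest adjusted p = 0.47), and with 3 against 4 libraries the smallest exact p is 0.057. The log2 ratio of Lox to Col1a1 was −6.01 ± 0.35 in contralateral, −7.41 ± 0.52 in c-FosWT DMM and −5.19 ± 1.44 in c-FosDCh DMM knees. The differences were −1.40 for c-FosWT DMM against contralateral (exact permutation p = 0.057) and 2.22 for c-FosDCh DMM against c-FosWT DMM (exact permutation p = 0.11). For Loxl3 to Col1a1 they were −1.02 and 1.88 (exact permutation p = 0.057 for both). Neither pair of groups overlapped for Loxl3, and for Lox to Col1a1 only c-FosWT DMM and contralateral did not overlap. The share of all genes without overlap in such a ratio was not computed. Against Col2a1 the differences were smaller, at −0.38 and 0.83 for Lox and −0.01 and 0.48 for Loxl3 (exact permutation p from 0.17 to 0.97). Relative to the cartilage collagen, the Lox level was thus −4.17 ± 0.82, −4.56 ± 0.87 and −3.73 ± 0.23 on the log2 scale in the 3 groups, and the groups overlapped.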

How the data were processed

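Poly(A) RNA of 11 knees was sequenced as single reads of 75 bases, per the labels' protocols. Per the submitters' processing notes the authors used bcl2fastq 2.19.1.403, STAR 2.6.1a, RSEM, DESeq2 1.22.2 and build GRCm38, with no strand column named. Each deposited file holds the authors' raw count for every gene. Gene counts made up 33.1 to 43.2% of reads, and the read classes that are not genes stayed out of library sizes. Gene IDs were named from GENCODE M21 (55240 of 55421 matched).

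Counts were fitted in edgeR 4.0.16 (R 4.3.3) with TMM scaling, filterByExpr (18125 genes kept, all 5 members among them), robust quasi-likelihood and 1 term for group over all 11 libraries, and p-values were adjusted by Benjamini-Hochberg over all tested genes with a threshold of 0.05. Log2 CPM used a prior count of 2. The fit was tested on simulated counts. Length scaling used the union of exons. Alternatives were DESeq2 1.42.0, limma 3.58.1 (voom), other scalings and filters, fits of only the groups compared, marker scores as covariates, single libraries left out and the animal as a block.

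The animal numbers in the titles pair 3 contralateral with 3 c-FosWT DMM libraries. Deviations of paired libraries from their group means correlated at −0.21, −0.24 and 0.23 over 5000 genes. Nothing says whether the other libraries came from separate litters or days. All replicates of a group differed by more than counting noise.

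The members and lists were chosen with earlier results of these data known. Named genes are the members, partners from role lists and, per member, the 3 genes of highest correlation. Pcolce, Fkbp10, Colgalt1 and Ccn2 were members of the role lists throughout and entered every count, but were picked for naming in the text after their values were seen. Permutation tests and correlations used scipy.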

Additional observations from a re-analysis of the deposited data

Results flagged for a closer look

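In the 22 sets of 4 libraries examined (each member's CPM and share of the family sum, and the family total), 2 had a highest or lowest library whose gap to its nearest neighbour exceeded Dixon's 95% critical value. About 1 in 20 such sets would by chance. Loxl2 was 168 CPM in c-FosDCh DMM replicate 4, with the other 3 libraries of that label at 58 to 64 CPM (gap of 0.945 of the range). That library also had the lowest marrow score, 4.6, and the part of this in the Loxl2 level was not tested. The Loxl1 share of the family sum was 15.9% in contralateral replicate 4, with the other 3 contralateral knees at 9.62 to 10.4% (gap of 0.868). Its Loxl1 level, 63.8 CPM, was close to the 61.1 CPM of replicate 2, while its Lox level was the lowest of the group.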

How the results depend on the processing

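The report's limits are few libraries, a tissue mixture that differs between them, and no unoperated knees under the c-FosDCh label.

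For Lox and Loxl3 in c-FosDCh against c-FosWT DMM, the calls ended (edgeR adjusted p) with only the 2 groups fitted (1.70 and 1.34; 0.0875 and 0.0846), with the marrow (0.70 and 0.69; 0.358 and 0.37), muscle (1.89 and 1.46; 0.0572 for both) or cartilage score (1.45 and 1.13; 0.0839 and 0.0772) as a covariate, without both c-FosDCh libraries of lowest marrow score (1.01 and 0.88; 0.175 and 0.163) and without both muscle-rich libraries (2.04 and 1.49; 0.0588 for both). Both omissions of 2 libraries were chosen after seeing the data. In each of these 6 settings 0 lysyl oxidases and 0 genes were called, and without either pair of libraries 0 partner genes were called.

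With single libraries left out the ranges were 1.36 to 2.04 for Lox, 1.09 to 1.49 for Loxl3, 0 to 2 members, 0 to 17 partners and 0 to 4626 genes called in that comparison, against 2616. Leaving out c-FosDCh replicate 1 or 2 raised the genes called to 4449 and 4626, and without contralateral replicates 1, 2 and 3 they were 0, 1 and 1355 (partners 0, 0 and 8). In c-FosDCh DMM against contralateral 0 to 1 genes were called. DESeq2 called 825, 5259 and 37 genes in the 3 comparisons and 4 partners in the first, and no filter on low counts gave 1443 in the second. Scaling by library totals called 2157, 54.5% of them higher against 73.7%, and moved the median of all genes to −0.18 and −0.17 in the comparisons with c-FosDCh.

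No member value that turned sign had been called. Loxl1 in c-FosWT DMM against contralateral became −0.21, −0.01 and −0.06 with the marrow, muscle and cartilage score and 0 without the muscle-rich libraries (single omissions −0.04 to 0.16). In c-FosDCh against c-FosWT DMM, the marrow score gave 0.09 for Loxl1, −0.06 for Loxl2 and −0.20 for Loxl4, and Loxl1 was 0.05 without the libraries of lowest marrow score. In c-FosDCh DMM against contralateral, Loxl2 was −0.21 with the marrow score, and without the lowest-marrow libraries Loxl1 was 0.14 and Loxl2 −0.19. Loxl4 was 0.05 without the muscle-rich libraries. Single omissions gave −0.23 to 0.44 for Loxl2 and −0.27 to 0.13 for Loxl4 there, and for c-FosWT DMM against contralateral −0.78 to 0.08 for the ratio of Lox to Col2a1 and −0.30 to 0.31 for that of Loxl3. The cause of these changes was not tested.

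Scaled by the longest transcript, Loxl3 was 16.3% of the family sum in c-FosDCh DMM and Loxl4 12.1% in c-FosWT DMM. By unduplicated words these were 13.7 and 10.2%, and Loxl2 was 14.9, 15.6 and 12.5%. With the animal as a replicate block, c-FosWT DMM against contralateral still had 0 members called, and Lox was −0.96 as a fixed block over 3 pairs and −1.07 as a random one.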
